A study of Mus musculus with 2 samples.

Results

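Glycolysis and the response to low oxygen were followed through 34 genes in the immune cells of MC38 tumors, a mouse colorectal cancer line grown under the skin. The genes were taken as a given list, and all 34 were present among the 27031 genes counted. Of these, 19 transport glucose or lactate, catalyze glycolysis or regulate it, and 15 are known to be switched on when oxygen is low. Live CD45+ cells, that is, immune cells, were sorted from tumors of female C57BL/6 mice aged 6 to 8 weeks. Cells of 5 control mice given vehicle (Sample Tag 1) and of 5 mice given telmisartan at 5 mg/kg (Sample Tag 2) were pooled by group. The pools were captured together on 1 BD Rhapsody cartridge. Vehicle and drug were given by gavage each day from tumor implantation, and tumors were harvested on day 13. Telmisartan is a blocker of the angiotensin II type 1 receptor that also acts on the nuclear receptor PPARG. The tumor line, the host strain, the sort and the capture were the same for both groups. Each group was a single pool of animals, so no test between groups was possible, no p-value is given, and every interval quoted is a 95% interval for counting alone, of molecules (unique molecular identifiers, UMIs) or, for a share of cells, of cells.

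Macrophages under low oxygen stabilize the transcription factor HIF-1, whose alpha subunit (*Hif1a*) is otherwise hydroxylated by the EGLN enzymes and removed through VHL. HIF-1 binds short DNA motifs with the core ACGTG or GCGTG and raises the transcription of glucose transporters, glycolytic enzymes, the lactate exporter and secreted factors such as VEGFA. *Egln3*, *Bnip3* and other targets also feed back on oxygen sensing or on mitochondria. In macrophages the same glycolytic genes are used during inflammatory activation, so glycolysis genes and hypoxia response genes need not move together.

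The promoters of the 3 genes that stood highest in the hypoxia-rich macrophage subcluster described below, among those with at least 200 UMIs and a promoter in the RefSeq table, are shown because that subcluster carries the main pattern of the list. They run 5′ to 3′ on the strand of the gene, from 250 bases before to 50 bases after the RefSeq start site on GRCm38.p6. Capitals mark each ACGTG or GCGTG on either strand, so that a match on the opposite strand reads CACGT or CACGC. *Egln3* encodes a HIF prolyl hydroxylase that is itself a HIF target (chr12:54203825-54204124, minus strand), *P4ha2* a collagen prolyl hydroxylase subunit (chr11:54100674-54100973, plus strand) and *Ero1l* (*Ero1a* in RefSeq) the oxidase that forms disulfide bonds in the endoplasmic reticulum (chr14:45318523-45318822, minus strand).
Egln3: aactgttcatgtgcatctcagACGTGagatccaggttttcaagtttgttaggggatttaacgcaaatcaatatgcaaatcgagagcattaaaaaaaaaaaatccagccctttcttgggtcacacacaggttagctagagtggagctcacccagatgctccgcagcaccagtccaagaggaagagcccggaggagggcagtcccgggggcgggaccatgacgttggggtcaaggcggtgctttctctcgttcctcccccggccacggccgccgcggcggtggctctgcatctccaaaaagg
P4ha2: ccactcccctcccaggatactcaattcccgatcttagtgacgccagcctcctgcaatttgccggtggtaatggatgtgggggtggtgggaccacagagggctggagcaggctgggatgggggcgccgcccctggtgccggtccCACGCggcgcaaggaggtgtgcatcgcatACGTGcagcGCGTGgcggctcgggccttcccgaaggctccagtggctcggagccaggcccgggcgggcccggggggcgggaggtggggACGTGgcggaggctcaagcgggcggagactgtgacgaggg
Ero1l: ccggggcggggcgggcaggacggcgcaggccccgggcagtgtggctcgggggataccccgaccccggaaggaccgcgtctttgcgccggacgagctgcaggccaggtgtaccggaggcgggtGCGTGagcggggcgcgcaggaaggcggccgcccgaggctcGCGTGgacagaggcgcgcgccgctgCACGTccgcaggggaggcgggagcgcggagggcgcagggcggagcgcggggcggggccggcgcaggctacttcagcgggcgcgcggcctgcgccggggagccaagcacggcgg
The *Egln3* window held 1 match, the *P4ha2* window 4 and the *Ero1l* window 3. Over the list, 32 of 34 genes were found in the table (*Bnip3l* and *Ndrg1* were not), and 25 of the 32 windows (78.1%) held at least 1 match. The share was 14 of 19 for glycolysis genes and 11 of 13 for hypoxia response genes. Over the 17491 protein-coding genes in the table, 49.2% of windows held a match. A match describes the letters of the window and does not show binding.

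The tags assigned 8738 putative cells to the control pool and 10222 to the telmisartan pool. Of these, 5078 and 4833 were within the limits on genes and mitochondrial UMIs. More cells were thus lost from the telmisartan pool, and the part of this loss in the differences between groups was not tested. After filtering, 8969 cells with 72512867 UMIs remained, 4535 from the control pool and 4434 from the telmisartan pool. Control cells were deeper, with a median of 8689 UMIs against 6357.5 in telmisartan cells, so levels are given as UMIs per 1000000 UMIs of the same cells (CPM). Clustering gave 8045 macrophage-like, 668 dendritic-like, 185 T-like and 71 neutrophil-like cells. The 34 genes were kept out of the genes used for clustering. The macrophage-like cells split into 6 subclusters. Subcluster 1 (1692 cells) was led by *Tnfsf15*, *Ereg* and *Areg*, subcluster 2 (1664 cells) by *Serpina3g* and *Cxcl9*, subcluster 3 (1532 cells) by *Gas6*, *Apoe* and *Folr2*, subcluster 4 (1165 cells) by interferon-induced *Ifit* genes, subcluster 5 (1037 cells) by cell cycle genes such as *Top2a*, and subcluster 6 (955 cells) by *Serpinb2*, *Il6* and *Cxcl3*. Subcluster 6 was the closest match to the population that the study labels macrophage_CFS (*Cxcl3*, *F3*, *Slpi*). No member of the list was among the 10 leading genes of any subcluster.

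Hypoxia response genes were concentrated in subcluster 6. Summed over the 15 genes they reached 8354 CPM there against 2741 CPM in the other macrophage subclusters together, a log2 ratio of 1.61 (interval 1.59 to 1.62). All 15 genes had their highest level of the 6 subclusters in subcluster 6, although the share of all genes that did so was not taken. At least 2-fold higher there than in the rest were 12 of them, beside 5.87% of the 11073 genes compared. Glycolysis genes were also higher, but by less. Their sum was 21453 CPM against 13734 CPM, a log2 ratio of 0.64 (0.63 to 0.65). Higher were 17 of 19 genes, beside 37.1% of all genes, and 3 were at least 2-fold higher, beside 5.87%. The median log2 ratio was 1.56 over hypoxia response genes, 0.59 over glycolysis genes and -0.23 over all genes compared. The cells of subcluster 6 were shallow, with a median of 4028 UMIs in control and 3724 UMIs in telmisartan cells. With cells thinned to 1000 UMIs, which kept 4004 control and 3924 telmisartan macrophage-like cells and left out shallower ones, the log2 ratio of the hypoxia response genes was 1.51.

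Gene by gene, the oxygen-sensing hydroxylase *Egln3* stood at 619 CPM in subcluster 6 and 108 CPM in the others (log2 2.52). *Ndrg1*, a stress-induced gene, had 724 and 141 CPM (log2 2.36). *P4ha2* had 41.3 and 8.76 CPM (log2 2.24). These 3 genes differed more between subcluster 6 and the rest than did any glycolysis gene, as did *Adm*, *Ero1l*, *Hilpda*, *Bnip3* and *Ankrd37*. *Ero1l* had 1392 and 334 CPM (log2 2.06), and *Hilpda*, which promotes lipid droplets by inhibiting lipolysis, had 1960 and 530 CPM (log2 1.89). *Bnip3*, a mitochondrial protein that drives mitophagy, had 816 and 244 CPM (log2 1.74), and its relative *Bnip3l* had 251 and 115 CPM (log2 1.13). The peptide hormone gene *Adm* was rare, with 63 UMIs in subcluster 6 and 77 UMIs in the others, and its log2 ratio was 3.47 (2.96 to 3.97). The angiogenic factor *Vegfa* differed less than these, at 1207 and 617 CPM (log2 0.97), and subclusters 1 and 4 held 937 and 879 CPM of it. The remaining genes were *Ankrd37* (log2 1.56), the MYC antagonist *Mxi1* (1.12), the mitochondrial protein *Higd1a* (0.83), the collagen hydroxylase subunit *P4ha1* (0.81), the hydroxylase *Egln1* (227 and 92.0 CPM) and the histone demethylase *Kdm3a* (104 and 45.4 CPM).

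The 3 glycolysis genes that were at least 2-fold higher in subcluster 6 act at the start of the pathway. The glucose transporter *Slc2a1* had 714 CPM in subcluster 6 and 270 CPM in the others (log2 1.40), hexokinase *Hk1* had 131 and 57.5 CPM (log2 1.19), and *Gpi1*, the isomerase that follows, had 1177 and 586 CPM (log2 1.01). For the enzymes further down the pathway, log2 ratios were 0.91 for *Pgk1*, 0.64 for *Pkm*, 0.62 for *Tpi1*, 0.59 for *Aldoa*, 0.55 for *Gapdh* and *Eno1*, 0.51 for *Ldha* and 0.46 for *Pgam1*. The second hexokinase, *Hk2*, stood at 0.82, the lactate exporter *Slc16a3* at 0.67, the phosphofructokinases *Pfkl* and *Pfkp* at 0.56 and 0.45, and *Pdk1*, a kinase that shuts pyruvate out of the mitochondrial cycle, at 0.46. *Pfkfb3*, which makes the activator of phosphofructokinase, was higher by 0.75, but its highest level lay in the interferon-led subcluster 4 (205 against 170 CPM). A pair of genes ran the other way. *Pfkfb4* had 12.5 CPM in subcluster 6, its lowest level, and 19.8 CPM in the others (log2 -0.67), and the aldolase *Aldoc* had 35.0 and 59.6 CPM (log2 -0.77).

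The other end of the range was subcluster 5, the cycling cells, with 1696 CPM of hypoxia response genes, next to subcluster 2 with 2114 CPM. Subclusters 4, 3 and 1 followed with 3034, 3188 and 3859 CPM. For glycolysis genes the lowest sum was that of subcluster 4 with 11129 CPM, then subcluster 5 with 12212 CPM, and subclusters 1, 2 and 3 lay between 13708 CPM in subcluster 2 and 15448 CPM in subcluster 1. Subcluster 4 also had the shallowest cells, with a median of 2399 UMIs in control and 2412 UMIs in telmisartan cells.

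**Figure D1:**
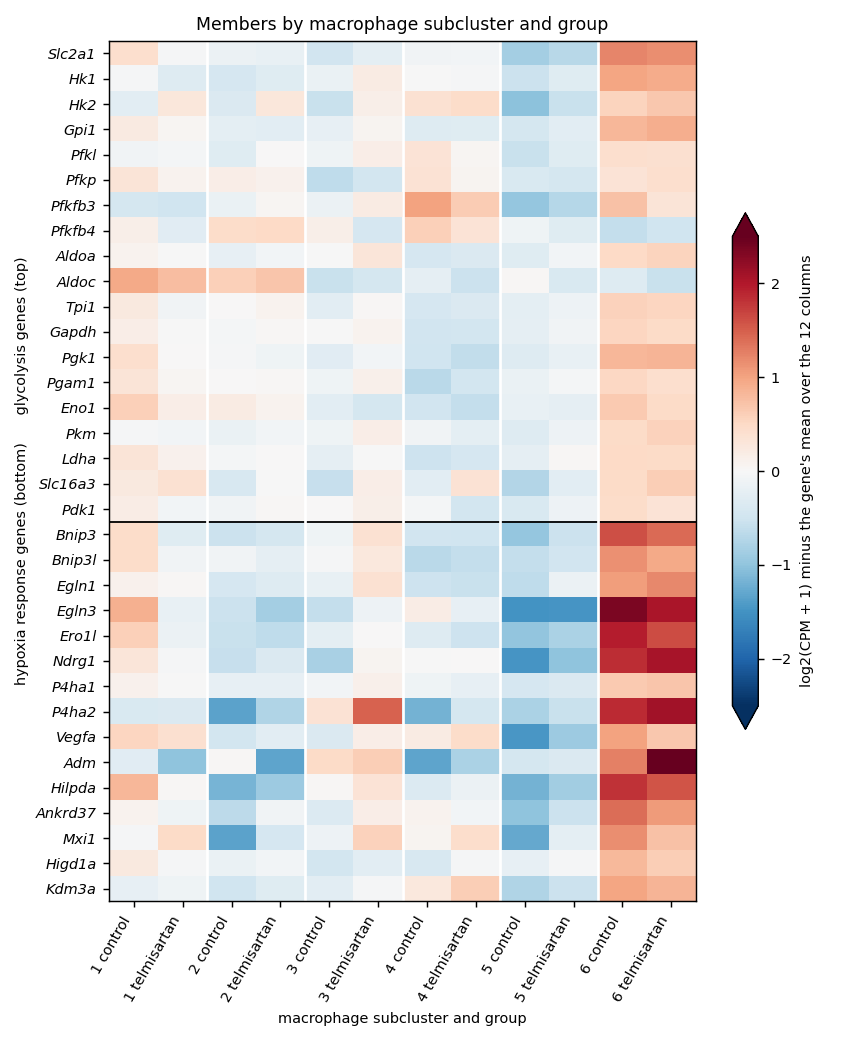
Level of each of the 34 genes (rows) in each macrophage subcluster and group (columns), as log2(CPM + 1) minus the mean of that gene over the 12 columns. Red is above and blue below the mean of the gene, and the pointed ends of the color bar stand for values beyond it. The hypoxia response genes below the line are red in both columns of subcluster 6 and mostly blue in subcluster 5, and in subcluster 1 several are paler in the telmisartan column than in the control column.

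The other cell types differed from macrophages in both groups of genes. Hypoxia response genes reached 6830 CPM in neutrophil-like cells, against 3128 CPM in macrophage-like, 1797 CPM in dendritic-like and 1666 CPM in T-like cells. In neutrophil-like cells *Hilpda* stood at 2681 CPM (371 UMIs), *Ero1l* at 1077 CPM (149 UMIs), *Egln3* at 607 CPM (84 UMIs) and *P4ha1* at 557 CPM (77 UMIs). In macrophage-like cells the same genes stood at 628, 407, 143 and 178 CPM. The neutrophil-like cells numbered only 71. The 11 macrophage markers summed to 18495 CPM in control and 18802 CPM in telmisartan macrophage-like cells, 3828 and 3398 CPM in dendritic-like, 6111 and 4044 CPM in T-like and 3557 and 2327 CPM in neutrophil-like cells, and the part of carried macrophage RNA in these levels was not tested. Glycolysis genes were highest in macrophage-like cells (14266 CPM), and close to each other in T-like (10376 CPM), neutrophil-like (10300 CPM) and dendritic-like cells (9253 CPM). Several single genes were higher outside macrophages. The phosphofructokinase *Pfkp* had 363 CPM in dendritic-like and 426 CPM in neutrophil-like cells against 180 CPM in macrophage-like cells, and *Aldoc* 92.5 CPM in dendritic-like against 57.9 CPM in macrophage-like cells. Neutrophil-like cells also had more *Slc2a1* (528 against 301 CPM), *Slc16a3* (441 against 188 CPM) and *Pfkfb3* (202 against 106 CPM) than macrophage-like cells. All of these are levels in the pools of cells that were captured, so no spread between animals can be given.

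Between the groups, macrophage-like cells had more hypoxia response RNA with telmisartan as a share of their UMIs, and nearly the same glycolysis RNA. The 15 hypoxia response genes summed to 2901 CPM (2884 to 2918) in control and 3433 CPM (3411 to 3455) in telmisartan cells, a log2 ratio of 0.24 (0.23 to 0.26). The 19 glycolysis genes summed to 13965 CPM (13927 to 14002) and 14671 CPM (14626 to 14715), a log2 ratio of 0.07 (0.07 to 0.08). The median over all 11073 genes was -0.05. There were 4049 control and 3996 telmisartan macrophage-like cells, with 38117079 and 28319074 UMIs. Of the 34 genes, 27 were higher and 7 lower, beside 42.9% and 57.1% of all genes. With a call at 1.3-fold, 6 were called higher, beside 9.85% of all genes, and 1 was called lower, beside 8.09%. Per cell and without scaling to depth, both sums were lower with telmisartan, by log2 ratios of -0.17 for hypoxia response and -0.34 for glycolysis genes, as was the median of all genes, at -0.46. The pools also differed in their mix of macrophages. Subcluster 2, low in hypoxia response genes, held 1313 control and 351 telmisartan cells, and subcluster 6 held 403 and 552. Subcluster 1, next to subcluster 6 in hypoxia response genes, held 636 and 1056, and subcluster 4 held 404 and 761. Subcluster 3 held 698 and 834, and subcluster 5 held 595 and 442. Over all macrophage-like cells 3 of the 10 genes that lead subcluster 2 were looked at and were lower with telmisartan, *Cxcl9* at 874 and 398 CPM, *Serpina3g* at 42.0 and 17.7 CPM and *Iigp1* at 105 and 81.3 CPM. Of the genes named for the population closest to subcluster 6, *Cxcl3* (471 and 291 CPM) and *Slpi* (124 and 112 CPM) were also lower although that subcluster held more telmisartan cells, and *F3* was higher (23.3 and 27.2 CPM). A difference in the mix and a difference in those genes cannot be told apart. With each subcluster given the same weight in both groups, the log2 ratio of the hypoxia response genes was -0.0043 and that of the glycolysis genes 0.03. These values average subclusters in which the groups differed in opposite directions, with hypoxia response genes higher in 4 and lower in 2 of them.

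The glycolysis genes called higher were a hexokinase at the entry of the pathway and the exporter of its product. *Hk2* (chr6:82725025-82774454, minus strand), the inducible hexokinase, had 91.6 CPM (88.6 to 94.7) in control and 137 CPM (133 to 141) in telmisartan cells, a log2 ratio of 0.58 (0.52 to 0.65). It was higher with telmisartan in 6 of 6 subclusters, by 0.08 to 0.70. *Slc16a3* (chr11:120948480-120960868, plus strand), which exports lactate, had 160 CPM (156 to 164) and 226 CPM (220 to 231), a log2 ratio of 0.50 (0.45 to 0.55), and was also higher in 6 of 6 subclusters, by 0.14 to 0.73. Intervals of *Hk2* included 0 in subclusters 4 and 6 and that of *Slc16a3* in subcluster 6. The call of *Hk2* was lost as a mean of ln(1 + UMIs per 10000), at 0.32, and per cell without scaling, at 0.17. The medians over all genes were -0.17 and -0.46 there. With the same mix of subclusters the ratio of *Hk2* was 0.51. The next in size were *Pfkl*, with 72.6 CPM (70.0 to 75.4) and 84.7 CPM (81.3 to 88.1), and *Hk1*, with 59.0 CPM (56.6 to 61.5) and 67.5 CPM (64.5 to 70.6), at log2 ratios of 0.22 and 0.19.

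Of the glycolysis genes that were lower, only *Pfkfb4* passed 1.3-fold. It had 21.5 CPM in control and 16.4 CPM in telmisartan cells, a log2 ratio of -0.39 (-0.55 to -0.22), on 818 and 465 UMIs. This value lay close to the limit, and the call was lost under several other settings, with a ratio of -0.34 without subcluster 2, -0.24 with the same mix of subclusters and 0.01 with cells thinned to 1000 UMIs. *Eno1* (chr4:150236721-150248879, plus strand), the enolase of most tissues, had 917 CPM (907 to 927) and 797 CPM (786 to 807), a log2 ratio of -0.20 (-0.23 to -0.18). It was lower in 6 of 6 subclusters, from -0.44 in subcluster 1 to -0.03 in subcluster 5, with intervals that included 0 in subclusters 4 and 5. *Eno1* shares sequence with *Eno1b*, which had 10071 UMIs in all kept cells against 60888 UMIs for *Eno1*, and *Eno1b* had a log2 ratio of 0.14. How reads were assigned between these copies is uncertain. *Aldoc* had 61.2 CPM (58.7 to 63.7) and 53.5 CPM (50.8 to 56.2), and *Pfkp* 184 CPM (180 to 188) and 175 CPM (170 to 180), at log2 ratios of -0.19 and -0.07. The other 11 glycolysis genes had log2 ratios between -0.01 (*Pgk1*) and 0.17 (*Aldoa*), with *Gapdh* at 0.03, *Ldha* at 0.08 and *Pkm* at 0.15.

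Among hypoxia response genes, *P4ha2* (chr11:54100095-54131665, plus strand) had 7.90 CPM (7.03 to 8.84) in control and 15.2 CPM (13.8 to 16.7) in telmisartan cells, a log2 ratio of 0.94 (0.73 to 1.16) on 301 and 430 UMIs. *Mxi1* (chr19:53310518-53375810, plus strand), whose product competes with MYC for its partner MAX, had 150 CPM (146 to 153) and 264 CPM (258 to 271), a log2 ratio of 0.82 (0.77 to 0.87). *Ndrg1* (chr15:66929318-66969640, minus strand) had 156 CPM (152 to 160) and 215 CPM (210 to 220), a log2 ratio of 0.46 (0.41 to 0.51). The counting intervals of the groups were apart for each of these. *Egln1*, the main oxygen sensor among the prolyl hydroxylases, had 90.2 CPM (87.2 to 93.2) and 116 CPM (112 to 120), a log2 ratio of 0.37 (0.30 to 0.43), just under the 1.3-fold limit (0.379). *Adm* had 60 and 80 UMIs and a log2 ratio of 0.84 (0.34 to 1.35). Of these UMIs, 10 in control and 53 in telmisartan cells came from subcluster 6 and 19 and 0 from subcluster 2, and the ratio was -0.24 without the cluster of the lowest UMI counts. *Vegfa* had 590 CPM (582 to 597) and 749 CPM (739 to 760), a log2 ratio of 0.35 (0.32 to 0.37). Only *Egln3* and *Bnip3l* were lower, by amounts whose intervals included 0. *Egln3* had 144 and 141 CPM (log2 -0.03) and *Bnip3l* 124 CPM in both groups. *Ankrd37* and *Kdm3a* stood at 0.32 and 0.30, *Hilpda* at 0.20, *Bnip3* at 0.17, *P4ha1* at 0.11, *Higd1a* at 0.06 and *Ero1l* at 0.04.

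**Figure D2:**
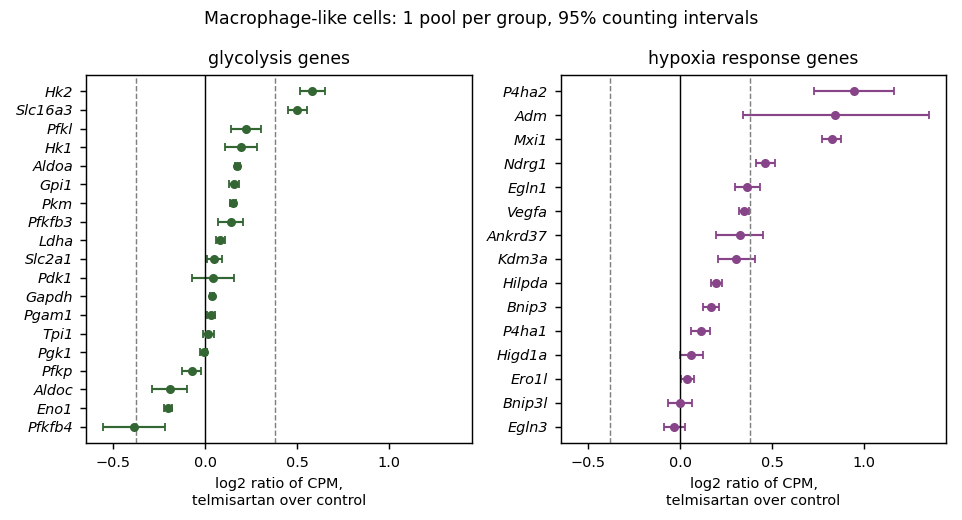
Log2 ratio of CPM, telmisartan over control, in macrophage-like cells for the 19 glycolysis genes (left) and the 15 hypoxia response genes (right), with 95% counting intervals and 1 pool per group. Dashed lines mark 1.3-fold in each direction. *Hk2* and *Slc16a3* on the left and *P4ha2*, *Mxi1*, *Ndrg1* and *Adm* on the right lie past the upper limit, *Adm* on 60 and 80 UMIs and with a wide interval, while *Pfkfb4* is the gene past the limit on the lower side.

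Inside the subclusters, the groups differed in opposite directions. In subcluster 1 the hypoxia response genes were lower with telmisartan, 4497 CPM (4447 to 4548) in control and 3336 CPM (3297 to 3375) in telmisartan cells, a log2 ratio of -0.43. In subcluster 6 they were lower too, at 9041 CPM (8910 to 9173) and 7810 CPM (7702 to 7920), a log2 ratio of -0.21. In subcluster 3 they were higher, at 2718 CPM (2680 to 2758) and 3667 CPM (3622 to 3713), a log2 ratio of 0.43, and in subcluster 5 likewise, at 1521 CPM (1495 to 1548) and 1966 CPM (1928 to 2003), a log2 ratio of 0.37. Subclusters 2 and 4 showed smaller differences of 0.15 and 0.13. The range of the sums over the 6 subclusters was therefore narrower with telmisartan, 1966 to 7810 CPM against 1521 to 9041 CPM in control. After thinning to 1000 UMIs per cell the log2 ratios were -0.47 in subcluster 1, 0.04 in subcluster 2, 0.41 in subcluster 3, 0.11 in subcluster 4, 0.28 in subcluster 5 and -0.17 in subcluster 6, with an interval that included 0 in subcluster 2. When the macrophages were divided into 8 subclusters in place of 6, the log2 ratio was -0.48 in the one that held mostly cells of subcluster 1, -0.23 in that of subcluster 6, 0.46 in that of subcluster 3, and 0.39 and 0.32 in the pair that split subcluster 5. Glycolysis genes followed with smaller differences, -0.20 in subcluster 1, 0.21 in subcluster 3, 0.16 in subcluster 5, 0.06 in subcluster 2 and -0.01 in subclusters 4 and 6.

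By gene, 9 of 33 members with at least 100 UMIs were called lower in subcluster 1, beside 7.68% of all genes there, and 2 higher, beside 15.4%. In subcluster 3 the balance was reversed, with 10 of 33 members called higher, beside 7.95%, and 1 lower, beside 12.1%. In subcluster 5, 8 of 32 members were called higher, beside 7.37%, and 1 lower, beside 8.81%. In subcluster 2, 4 of 32 members were called higher and 0 lower, beside 8.26% and 11.4%. Subcluster 4 had 1 of 31 higher and 2 lower, beside 12.4% and 12.6%, and subcluster 6 had 0 of 32 higher and 2 lower, beside 13.6% and 10.5%. The members' share of calls was above that of all genes in the direction of the sum in subclusters 1, 3 and 5, whereas the counts in subclusters 2, 4 and 6 were small or near the share of all genes. These differences in share were not tested.

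The hydroxylase *Egln3* differed in opposite directions in subclusters 1 and 3. It had 250 CPM (238 to 262) in control and 119 CPM (111 to 126) in telmisartan cells of subcluster 1, a log2 ratio of -1.07, but 88.8 CPM (82.0 to 96.1) and 123 CPM (115 to 131) in subcluster 3, a log2 ratio of 0.47. It was also lower in subclusters 2, 4 and 6, by ratios of -0.32, -0.40 and -0.31 with intervals below 0, and stood at 0.02 in subcluster 5. *Hilpda* had 1095 and 623 CPM in subcluster 1 (log2 -0.81) and 629 and 779 CPM in subcluster 3 (0.31). *Bnip3* had 392 and 233 CPM in subcluster 1 (-0.75) and 264 and 373 CPM in subcluster 3 (0.50). *Ero1l* had 615 and 368 CPM in subcluster 1 (-0.74) and 343 and 408 CPM in subcluster 3 (0.25). *Mxi1* took another course. It was higher with telmisartan in subcluster 1 (205 and 293 CPM, log2 0.51) as in subclusters 2 to 5 (0.38 to 1.04), and lower in subcluster 6, at 467 CPM (438 to 498) and 347 CPM (325 to 371), a log2 ratio of -0.43. *Vegfa* was higher in subclusters 3 and 5 (0.54 and 0.55) and lower in subcluster 6 (-0.34). *Ndrg1* was higher in subcluster 3, with 104 CPM (96.9 to 112) and 191 CPM (181 to 202), a log2 ratio of 0.87, and lower only in subcluster 1 (-0.34). *P4ha2* in subcluster 3 had 88 and 192 UMIs and a log2 ratio of 1.16 (0.79 to 1.54), and its intervals in the other subclusters included 0.

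**Figure D3:**
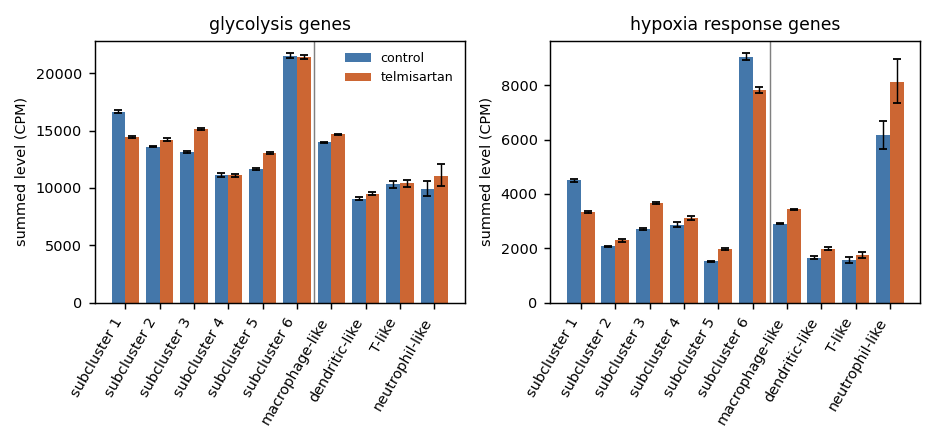
Summed CPM of the 19 glycolysis genes (left) and of the 15 hypoxia response genes (right) in each macrophage subcluster, in all macrophage-like cells and in the other classes, for control (blue) and telmisartan (orange). Error bars are 95% counting intervals with 1 pool per group. Subcluster 6 is highest in both panels among macrophages, and the order of the groups is opposite in subclusters 1 and 3.

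Outside macrophages, dendritic-like cells showed ratios like those of the macrophage-like cells, 0.26 (0.20 to 0.32) for hypoxia response and 0.07 (0.04 to 0.10) for glycolysis genes. Of 31 members with at least 100 UMIs there, 4 were called higher, beside 9.56% of all genes, and 2 lower, beside 11.1%. The counts of called members were thus near the shares of all genes. *Hk2* (80.5 and 115 CPM), *Hk1* (48.2 and 66.6 CPM), *Ndrg1* (184 and 253 CPM) and *Vegfa* (166 and 251 CPM) were higher and *Egln3* (69.3 and 43.3 CPM) and *Ankrd37* (70 and 35 UMIs, with an interval that included 0) lower. In T-like cells, 72 in control and 113 with telmisartan, the hypoxia response genes summed to 1570 and 1758 CPM, a log2 ratio of 0.16 (0.01 to 0.31), and the ratio of the glycolysis genes was 0.01 (-0.05 to 0.07). Of 18 members with at least 100 UMIs there, 4 were called higher, beside 18.9% of all genes, and 2 lower, beside 13.9%, shares near those of all genes. *Higd1a* (82.2 and 163 CPM), *Ndrg1* (86.8 and 157 CPM), *Pfkp* (162 and 227 CPM) and *Hilpda* (311 and 426 CPM) were higher, and *Ero1l* was lower (219 and 168 CPM, with an interval that included 0). *Vegfa* was lower as well, with 196 CPM in control and 64.0 CPM in telmisartan cells, on 86 and 29 UMIs. The macrophage markers were also lower in the telmisartan T-like cells, at the values given above, and their part in the *Vegfa* values was not tested. The neutrophil-like cells were too few (47 and 24) for most genes, and *Hilpda* had 2240 and 3533 CPM there on 204 and 167 UMIs.

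Single cells were compared at equal depth by thinning each macrophage-like cell to 2000 UMIs, which left out 272 control and 430 telmisartan cells of lower depth and kept 7343. The median number of hypoxia response UMIs per 2000 was 4 in control and 6 in telmisartan cells, and the means were 6.31 ± 6.43 and 7.25 ± 6.05 (SD over cells). The difference lay at the lower end. Cells with no hypoxia response UMI made up 7.15% (6.35 to 8.02) of control and 3.42% (2.85 to 4.07) of telmisartan cells, whereas the 90th percentile was 15 in both, and the 99th percentile was 30 and 28. Without thinning, 0.963% of control and 1.43% of telmisartan cells had none, on unequal depth. In dendritic-like cells the median was 2 in both groups, and cells with none made up 18.4% (14.5 to 22.8) of 354 control and 15.9% (11.8 to 20.7) of 283 telmisartan cells. In T-like cells the median was 3 in both, and cells with none made up 15.1% (6.75 to 27.6) of 53 control and 4.94% (1.36 to 12.2) of 81 telmisartan cells. The intervals overlapped in both classes. Within subcluster 3 the median was 4 in control and 6 in telmisartan cells, and within subcluster 1 it was 8 and 6.

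Cells rich in hypoxia response UMIs were also rich in glycolysis UMIs. Ordered by their hypoxia response UMIs per 2000, the cells with 0 to 2 such UMIs had a glycolysis level of 10900 CPM, those with 3 to 5 had 12935 CPM, those with 6 to 9 had 14752 CPM and those with 10 or more had 18991 CPM. The log2 ratio of the last of these 4 sets of cells to the lowest was 0.80 (0.78 to 0.82). Over the 7343 cells, Pearson's r of both counts was 0.54, a description over cells that share a library and a subcluster. Within single subclusters the log2 ratio ran from 0.40 in subcluster 2 to 0.79 in subcluster 3. At a given hypoxia response level the groups were alike in glycolysis. Cells with 0 to 2 hypoxia response UMIs had 10890 CPM (10760 to 11022) in control and 10917 CPM (10748 to 11087) in telmisartan cells, and cells with 10 or more had 19008 CPM (18799 to 19218) and 18975 CPM (18775 to 19177), so that intervals overlapped in both. Cells of subcluster 6 made up 0.513% of the former and 33.4% of the latter.

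**Figure D4:**
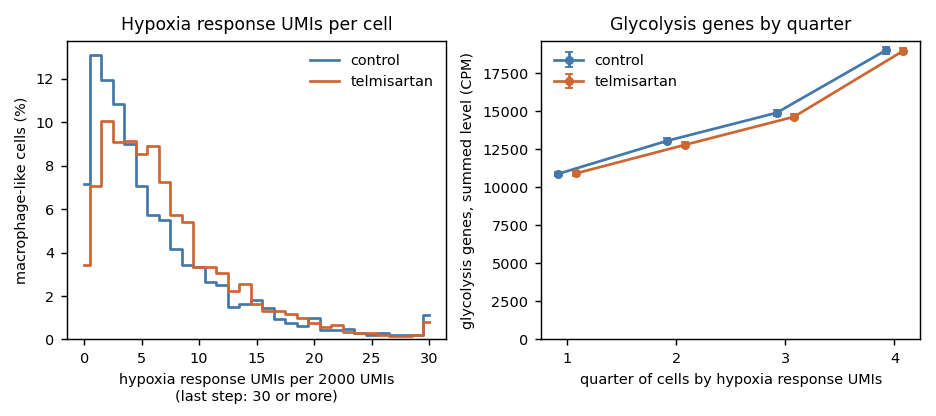
Macrophage-like cells thinned to 2000 UMIs. Left, share of cells (percent) by number of hypoxia response UMIs, for control (blue) and telmisartan (orange), where fewer telmisartan cells have 0 to 3 such UMIs. Right, summed CPM of the glycolysis genes in the 4 sets of cells ordered by hypoxia response UMIs (0 to 2, 3 to 5, 6 to 9, 10 or more), with 95% counting intervals, where the lines of both groups climb together from 10900 to 18991 CPM over all cells.

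A separate list of 9 genes of oxygen sensing, which leaves out the members *Egln1* and *Egln3*, held 7 genes with at least 100 UMIs. *Hif1a* RNA was lower with telmisartan in macrophage-like cells, at 264 and 181 CPM, a log2 ratio of -0.54 (-0.59 to -0.49), and lower in 6 of 6 subclusters, by ratios from -0.72 to -0.34. The other 6 of these 7 genes had log2 ratios above 0, beside 42.9% of all 11073 genes, although the interval of *Cul2* included 0, and the median log2 ratio over the 7 was 0.28. Of them *Siah2*, a ubiquitin ligase that acts on the EGLN enzymes, passed 1.3-fold (17.7 and 24.4 CPM, log2 0.46). In subcluster 6 *Hif1a* had 276 CPM against 225 CPM in the others (log2 0.29). There 0 of the 7 genes were 2-fold higher, beside 5.87% of all 11073 genes, so the count was near the share of all genes.

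Among 20 further genes known to respond to hypoxia, with at least 100 UMIs, 14 were higher and 6 lower with telmisartan, beside 42.9% and 57.1% of all genes, and 7 were at least 2-fold higher in subcluster 6, beside 5.87%. At 1.3-fold 5 were called higher, beside 9.85%, and 0 lower, beside 8.09%. Among those called higher were the repressor *Bhlhe40* (log2 0.53), the chemokine receptor *Cxcr4* (0.50), the adenylate kinase *Ak4* (0.45) and the glycogen branching enzyme *Gbe1* (0.41). In subcluster 6 the nitric oxide synthase *Nos2* had 1440 CPM against 207 CPM in the others (log2 2.80) and *Gbe1* 85.3 against 20.1 CPM (2.09), whereas *Cxcr4* was lower there (-0.43). Of 7 genes of the pentose phosphate pathway, which branches from glycolysis, 6 were lower with telmisartan, beside 57.1% of all genes, among them *Rpe* (27.0 and 17.6 CPM, log2 -0.62), and *Pgls* was higher (log2 0.46). Of 9 genes of the mitochondrial transport and oxidation of pyruvate, 6 were lower, beside 57.1% of all genes. The list includes the inhibitory kinases *Pdk2* and *Pdk3*. Only *Dld*, a subunit of pyruvate dehydrogenase, passed 1.3-fold (log2 -0.38), beside 8.09% of all genes called lower. These counts were near the shares of all genes. The median log2 ratio of the 9 genes in subcluster 6 was -0.63, against 0.68 for the further hypoxia genes and -0.23 over all genes compared. A further 14 glycolysis genes with at least 100 UMIs were mostly isoforms of the listed enzymes. With telmisartan 7 were higher and 7 lower, beside 42.9% and 57.1% of all genes. At 1.3-fold 0 were called, beside 9.85% of all genes called higher and 8.09% called lower. Below 100 UMIs, the hexokinase *Hkdc1* had 10 and 79 UMIs (log2 3.41, 2.46 to 4.53) and the enolase *Eno2* 22 and 36 UMIs (1.14, 0.33 to 1.97). *Pklr* and *Gpd1* were lower on fewer UMIs, with intervals that included 0.

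The genes whose pattern was most like the mean of the 34 members, over the 12 combinations of subcluster and group and among 6670 genes, were *Tnfrsf23* (Pearson's r 0.99), *Il7r* (0.98), the glycogen synthase *Gys1* (0.98), the cytokine *Mif* (0.98) and *Eno1b* (0.98). *Tnfrsf23* had 145 CPM in subcluster 6 and 37.1 CPM in the others. *Il7r*, a cytokine receptor best known from lymphocytes, had 441 and 122 CPM. The 12 points come from 1 capture, and *Eno1b* shares sequence with a member.

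Markers of other cells were also counted in the macrophage-like cells. The tumor or epithelial genes *Epcam*, *Krt8*, *Krt18* and *Krt19* had 39, 2, 0 and 1 UMIs in control and 16, 0, 1 and 1 UMIs in telmisartan cells, while *Cdh1*, the fifth marker, had 2292 and 1230 UMIs. The fibroblast genes *Col1a1*, *Col3a1* and *Dcn* had 102, 103 and 14 UMIs in control and 137, 119 and 21 UMIs in telmisartan cells. Summed, they stood at 5.75 and 9.78 CPM, and in subcluster 3 at 9.23 and 14.0 CPM. The collagen hydroxylase gene *P4ha2* was also higher with telmisartan, and the part of fibroblast RNA in it was not tested. Hemoglobin genes *Hbb-bs* and *Hba-a1* had 41 and 70 UMIs in control and 8 and 8 in telmisartan cells, out of 38117079 and 28319074 UMIs. The 3 endothelial markers summed to 814 and 601 UMIs, and the 5 neutrophil markers to 1280 and 872 UMIs. In subcluster 6 the endothelial markers stood at 43.0 CPM in control and 40.7 CPM in telmisartan cells, and the neutrophil markers at 55.4 and 74.0 CPM, against 33.6 and 30.8 CPM in all macrophage-like cells. The part of such cells in the members' values was not tested.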

How the data were processed

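Per the file headers, the authors ran the BD Rhapsody WTA Analysis Pipeline 1.11 (GRCm38, GENCODE M19, intronic reads kept). The deposited values are counts of UMIs for each gene in each putative cell, corrected for UMI errors by the pipeline, and counts of Sample Tag reads. Neither was normalized or filtered on quality. Cells were assigned to the control or telmisartan pool where a tag held 75% or more of their Sample Tag reads (minimum 10). Limits of 150 and 5000 genes and of 20% mitochondrial UMIs were applied. The top 9.51% of cells by Scrublet score were taken out as doublets, a share estimated from the cells with mixed tags. The automatic threshold of Scrublet marked 0 cells and was not used.

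Clustering used Seurat 5.3.0 in R 4.3.3 (2000 variable genes without the 34 members, 30 principal components, resolution 0.5, and 0.4 for macrophages). Markers named the classes. UMIs were summed in Python 3.11.15 (numpy 2.4.6, scipy 1.17.1, scanpy 1.11.5) and given as CPM with exact Poisson intervals, and ratios with exact conditional binomial intervals, for genes with at least 100 UMIs. Intervals and shares cover counting error only. With 1 pool per group, a gene was called by size (1.3-fold). Gene positions are from GENCODE M21. The ratios and thinning were tested on simulated data. The genes given in full were, in each of the 2 role groups, the 4 with the largest rise and the 4 with the largest fall at 200 UMIs or more, and other pathway genes past 1.3-fold. The members and lists were chosen with earlier results of these data known. Alternatives covered the tag share, cell limits, doublets, resolution, scaling (TMM factors from edgeR 4.0.16 among them), depth and the mix of subclusters. One gene of the further hypoxia list is not reported here by name.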

Additional observations from a re-analysis of the deposited data

Results flagged for a closer look

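*Egln3*, *Bnip3* and *Mxi1* differed between the groups past 1.3-fold in opposite directions in different macrophage subclusters, each with a counting interval that excluded 0. The log2 ratio of *Egln3* was 0.47 in subcluster 3 and -1.07 in subcluster 1, and that of *Bnip3* was 0.50 in subcluster 3 and -0.75 in subcluster 1. For *Mxi1* it was 1.04 in subcluster 5 and -0.43 in subcluster 6. With 1 pool per group these differences between subclusters were not tested.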

How the results depend on the processing

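In macrophage-like cells the log2 ratio of the glycolysis genes (0.07) was 0.08 at 90% of tag reads, without an upper gene limit, without mitochondrial and ribosomal protein genes in the totals and without *Gapdh*, 0.09 at 10% mitochondrial UMIs, 0.06 with TMM factors, without the shallowest cluster and without subcluster 2 (chosen after seeing the data), 0.04 with cells scaled alike, 0.03 with the same mix of subclusters, -0.01 as a mean of ln values and -0.34 per cell without scaling. That of the hypoxia response genes (0.24) was 0.27 without an upper gene limit, 0.29 at 10% mitochondrial UMIs, 0.22 without *Vegfa*, 0.21 without doublet removal, 0.20 without the shallowest cluster, 0.19 with cells scaled alike, 0.18 with cells thinned to 1000 UMIs, 0.14 with the same distribution of UMIs, 0.13 as a mean of ln values, 0.11 without subcluster 2, -0.0043 with the same mix of subclusters and -0.17 per cell without scaling. The median over all genes was -0.17 as a mean of ln values and -0.46 per cell, so both lists stayed above it. Members called lower (1) numbered 9 per cell without scaling, beside 61.7% of all genes, and 0 at 500 genes, without doublet removal, with cells scaled alike, without mitochondrial and ribosomal protein genes, thinned or without subcluster 2, and members called higher (6) numbered 3 as a mean of ln values or per cell, beside 5.47% and 2.54% of all genes, 4 with the same mix of subclusters (8.05%) or without the shallowest cluster (8.57%), and 5 to 8 in the others. *Pfkfb4* stood at 0.01 when thinned and *Adm* at -0.24 without the shallowest cluster. With the same mix of subclusters 1 member was still called lower, but it was not *Pfkfb4*, which did not pass 1.3-fold there. The contrast of subcluster 6 (1.61) was 1.59 with the members among the variable genes, 1.57 with 8 subclusters, 1.53 without mitochondrial and ribosomal protein genes, 1.51 thinned, 1.75 without *Vegfa*, 1.82 in control and 1.38 in telmisartan cells. The glycolysis contrast between cells with most and fewest hypoxia response UMIs (0.80) was 0.71 at 1000 UMIs and 0.87 without *Gapdh*. The causes were not tested. No paired analysis was possible because each group was 1 pool.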
